A study of Mus musculus with 16 samples.

Results

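The retina of mice labelled as conditional knockouts (CKO) of Uxt was followed from postnatal day 1 (P1) to postnatal day 7 (P7). The members are the 2 libraries labelled P7 CKO and the 2 labelled P1 CKO, chosen by label alone, 4 of the 16 RNA-seq libraries of the study, and they were compared across all genes. All animals were C57BL/6 mice, and both CKO groups came from crosses of Chx10-Cre with Uxtflox/flox mice, in which loxP sites flank exon 3 of Uxt. The other libraries used were 2 controls at each of P1 and P7, whose genotype the labels give only as control, and the libraries of both genotypes at P14, which entered the fit to share the estimate of spread. The labels do not say how many animals a library holds or whether the 2 libraries of a group are different animals; p-values therefore reflect only how these libraries scatter, and that scatter may be technical. The Chx10-Cre driver is active in retinal progenitors, so the design targets the cells that descend from them, and microglia, vessels and tissue around the retina are not targeted by it.

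In the mouse, the days after birth are when the last retinal progenitors leave the cell cycle and give rise to rods, bipolar cells and Müller glia, while ganglion, horizontal, amacrine and cone cells are mostly born before. Rods then switch on the phototransduction cascade under the transcription factors OTX2, CRX, NRL and NR2E3, and photoreceptors and bipolar cells build their ribbon synapses. UXT is a small prefoldin-like protein that sits with URI1, prefoldin subunits and the RUVBL1 and RUVBL2 helicases in a complex that helps to assemble other protein complexes.

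Uxt itself (ENSMUSG00000001134, chrX:20941722-20962017, minus strand, mm10) was measured first. Levels are given as read counts scaled to library size (CPM), adjusted between libraries by edgeR's TMM factors. Every difference between P1 and P7 is on the log2 scale, P7 minus P1. The value after ± is a standard error (SE) derived from the test statistic. Where a group has few counts, this SE can be smaller than counting error alone, so it overstates the precision of such changes. In the libraries labelled CKO, Uxt was at 4.75 and 3.54 CPM at P1 and 7.63 and 6.58 CPM at P7, from 89, 62, 154 and 126 counts. The P7 pair lay above the P1 pair, with a rise of 0.77 ± 0.16 (edgeR quasi-likelihood test, adjusted p = 1.56e-05). In controls Uxt was at 6.73 and 7.99 CPM at P1 and 5.74 and 6.41 CPM at P7, a difference of -0.27 ± 0.15 that did not pass the test, and the change in the CKO libraries was above that in controls by 1.04 ± 0.22 (adjusted p = 6.24e-05). At P1 the libraries labelled CKO were below the controls by a log2 difference of -0.82 ± 0.16 (adjusted p = 1.11e-05), while at P7 both lay above both controls, with a difference of 0.23 ± 0.15 that did not pass the test (adjusted p = 0.319). The Uxt level thus gives no check of the P7 label, and directions below are those of the libraries as labelled. Counts are per gene and include transcripts that lack exon 3, and by the design retinal cells outside the Chx10 lineage keep the gene.

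The 4 CKO libraries held between 16202580 and 19161594 counts. A count of 0 leaves room for up to 3 counts, or 0.149 to 0.171 CPM in these libraries. Limits and counting intervals given here cover counting error only. Replicates were close (chi-square of 1.52 at P1 and 1.61 at P7, each divided by its degrees of freedom), with a common biological coefficient of variation of 0.0208, so small changes could pass the test. Xist was at 1438 and 1437 CPM at P1 and 1367 and 1358 CPM at P7, and Ddx3y, on the Y chromosome, had 1 count over the 4 CKO libraries; both CKO ages were thus alike in holding Xist and in lacking Ddx3y. Controls of both ages held Ddx3y at 63.2 to 76.5 CPM and Xist at no more than 2.45 CPM, so genotype label and sex cannot be told apart in any difference between the CKO and the control change.

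Of 20350 tested genes, 11398 (56%) changed between P1 and P7 in the libraries labelled CKO by edgeR's quasi-likelihood test at an adjusted p under 0.05. Of all tested genes 5865 (28.8%) were higher and 5533 (27.2%) were lower at P7, and the median change was 0.01. With library size alone the balance turned, to 5403 higher and 6160 lower. With at least a 2-fold change as well, 1954 genes (9.6%) were higher and 1098 (5.4%) lower. Of these, 190 higher genes had no count in either P1 library and 4 lower genes had none in either P7 library, so their fitted changes have no true size. In 15506 genes (76.2%) the P1 and P7 libraries did not overlap in CPM. These shares are the background against which the counts of each gene group below are to be read. In controls 12500 genes (61.4%) changed between the same ages, and 9020 genes changed in the same direction in both, which is 79.1% of the genes called in CKO and 72.2% of those called in controls.

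**Figure D1:**
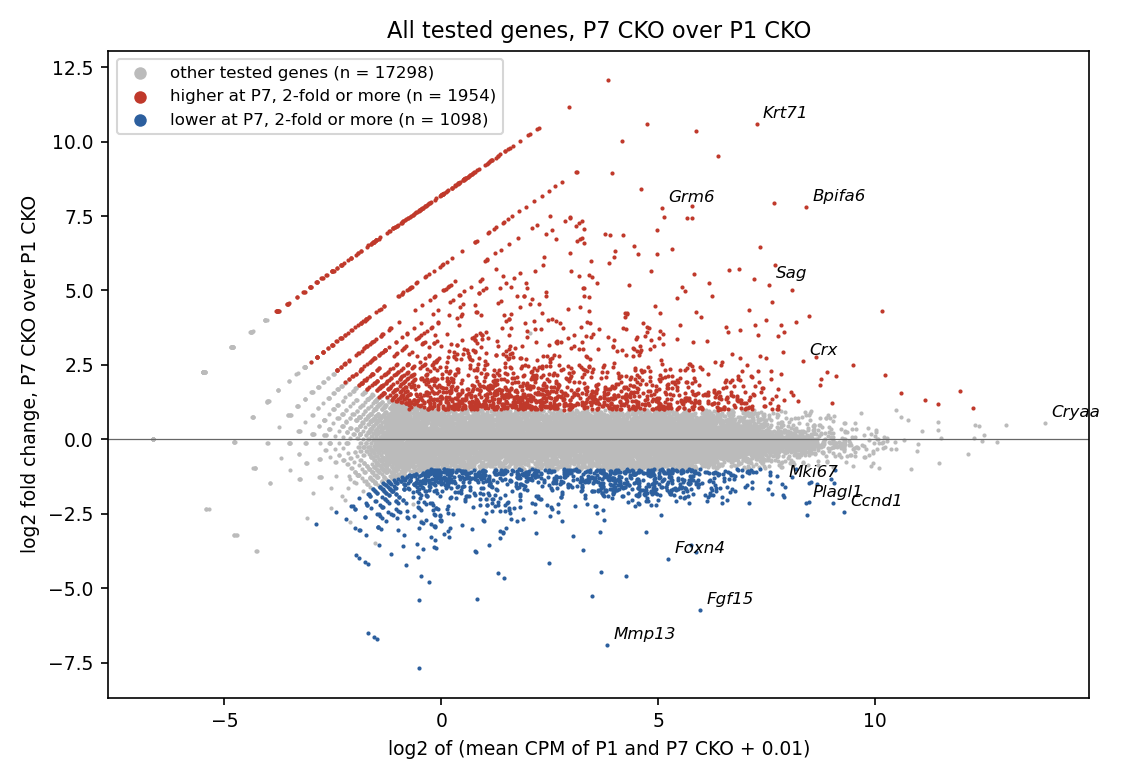
Log2 fold change of P7 CKO over P1 CKO (vertical axis) against the mean level of both groups (horizontal axis, log2 of CPM + 0.01) for 20350 genes, with the 1954 genes higher and the 1098 genes lower at P7 by 2-fold or more in colour. Genes of photoreceptors and bipolar cells such as Sag, Crx and Grm6 lie above 0 and genes of dividing cells such as Ccnd1 and Fgf15 below it; the straight diagonal rows at low levels are genes with few or no counts at P1.

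Retinal progenitor genes were lower at P7. Of 16 tested, 15 fell and 1 rose, with a median of -0.94, against 27.2% of all genes lower. Ccnd1, the cyclin D1 of dividing progenitors, was at 1059 and 1062 CPM at P1 and 197 and 191 CPM at P7, several times lower in both P7 libraries. Its log2 change was -2.45 ± 0.028 (adjusted p = 3.23e-151). Fgf15, a growth factor of progenitors, was at 125 and 119.7 CPM at P1 and 2.87 and 1.72 CPM at P7, and changed by -5.72 ± 0.091. Nr2e1 (-1.68 ± 0.067), Sox2 (-1.30 ± 0.064) and Lhx2 (-1.20 ± 0.048), transcription factors that keep progenitors dividing, fell as well. In the Notch pathway, which holds progenitors undifferentiated, the receptor Notch1 changed by -0.52 ± 0.033 and its target Hes5 by -0.84 ± 0.092. In bulk retina, fewer cells of a type and less RNA per cell cannot be told apart, here and in all groups below.

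All 26 cell cycle genes fell, 25 of them by at least 2-fold, against 5.4% of all genes, with a median of -1.48 and a narrow range from -1.94 to -0.83. Mki67, a marker of cycling cells, was at 338 and 345 CPM at P1 and 123 and 121 CPM at P7. Top2a, the topoisomerase that untangles chromosomes before division, was at 377 and 384 CPM at P1 and 101 and 96.9 CPM at P7. No P7 library reached a P1 library for either gene, and their changes were -1.48 ± 0.033 and -1.94 ± 0.034. The mitotic kinase Cdk1 changed by -1.62 ± 0.061 and its cyclins Ccnb1 and Ccnb2 by -1.84 ± 0.058 and -1.19 ± 0.079. Of the replication genes, Pcna, the sliding clamp of the polymerase, changed by -1.05 ± 0.038, and Tyms, which makes thymidylate, by -0.83 ± 0.082, the member nearest to 0.

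Because the cell cycle genes moved together, the promoters of Top2a, Cdk1 and Ccnb2 are shown as examples. Cell cycle promoters are known for CCAAT boxes bound by NF-Y and for the cell cycle homology region, whose core is TTTGAA. Promoters here are 300 bases, 250 before to 50 after the gene start, from RefSeq (GRCm38.p6), given 5′ to 3′ along the gene, with each match to CCAAT or TTTGAA on either strand in capitals (reverse matches read ATTGG and TTCAAA).

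Top2a, chr11:99024140-99024439, minus strand: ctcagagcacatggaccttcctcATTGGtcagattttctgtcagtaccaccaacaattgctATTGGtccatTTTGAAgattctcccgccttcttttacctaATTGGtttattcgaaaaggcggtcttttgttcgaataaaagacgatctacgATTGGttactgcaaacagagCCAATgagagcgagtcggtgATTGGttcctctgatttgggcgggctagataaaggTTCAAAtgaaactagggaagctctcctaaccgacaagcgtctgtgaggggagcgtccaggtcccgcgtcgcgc
Cdk1, chr10:69352863-69353162, minus strand: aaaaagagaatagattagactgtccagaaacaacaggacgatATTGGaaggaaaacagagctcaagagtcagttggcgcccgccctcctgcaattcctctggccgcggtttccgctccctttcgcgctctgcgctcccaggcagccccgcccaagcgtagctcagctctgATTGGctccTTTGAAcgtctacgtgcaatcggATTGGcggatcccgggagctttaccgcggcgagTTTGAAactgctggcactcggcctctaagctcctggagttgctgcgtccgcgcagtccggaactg
Ccnb2, chr9:70421505-70421804, minus strand: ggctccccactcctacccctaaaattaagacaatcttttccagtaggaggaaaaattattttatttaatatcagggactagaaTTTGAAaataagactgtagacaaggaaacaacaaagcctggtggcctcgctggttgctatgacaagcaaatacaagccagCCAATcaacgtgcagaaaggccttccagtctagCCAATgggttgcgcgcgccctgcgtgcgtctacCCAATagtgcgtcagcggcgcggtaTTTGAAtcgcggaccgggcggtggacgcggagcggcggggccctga

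Of the 22 cell cycle genes with a promoter in the table, 18 (81.8%) held CCAAT and 11 (50%) held TTTGAA, against 41.1% and 20.2% of all 27025 genes in it. A high share of CCAAT was not particular to them: it was 85.7% for the unfolded protein response, 81.8% for the visual cycle and pigment epithelium, 69.2% for photoreceptor transcription factors and 60% for rods. The promoter of Top2a held 8 matches, and those of Cdk1 and Ccnb2 held 5 each. Each of these examples held both motifs, so they do not stand for the whole list. None of the marked matches of CCAAT overlaps one of TTTGAA. A match is a description of the letters and not a bound site.

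Genes of neurogenic precursors, the cells that have just left the cycle, went both ways. Of 19 tested, 15 fell, 10 of them at least 2-fold, and 4 rose. Atoh7, which makes cells competent to become ganglion cells, was at 22.7 and 20.7 CPM at P1 and 0.693 and 0.418 CPM at P7, and Foxn4, which directs amacrine and horizontal fates, at 72.6 and 68.5 CPM at P1 and 3.81 and 4.85 CPM at P7. Both were many times lower in each P7 library, with changes of -5.26 ± 0.19 and -4.03 ± 0.091. Neurog2, a proneural factor of late progenitors, changed by -1.86 ± 0.074. The Notch ligands Dll1, Dll3 and Dll4, which precursors present to their neighbours, changed by -0.92 ± 0.062, -1.05 ± 0.093 and -1.33 ± 0.085. In the other direction, Neurod4 was at 67.3 and 65.0 CPM at P1 and 246 and 258 CPM at P7 and Neurod1 at 102 and 102 CPM at P1 and 333 and 330.1 CPM at P7, both higher in each P7 library. These are proneural factors of bipolar cells and photoreceptors, and they rose by 1.93 ± 0.039 and 1.70 ± 0.034 (adjusted p = 5.97e-108 and 3.58e-108). Insm1 (1.03 ± 0.039) and Btg2 (0.80 ± 0.037), which act at the last division, rose too.

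Most photoreceptor transcription factors rose, with the rod factors at the top. Of 14 tested, 10 rose, 3 fell and the median was 0.86. Nr2e3, the nuclear receptor that shuts off cone genes in rods, was at 37.0 and 39.4 CPM at P1 and 683 and 677 CPM at P7. Nrl, the leucine zipper factor that fixes the rod fate, was at 35.1 and 36.7 CPM at P1 and 552 and 540.0 CPM at P7, and Crx, the homeodomain factor of all photoreceptors, at 90.0 and 91.1 CPM at P1 and 560.3 and 553 CPM at P7. In all of these genes both P7 libraries were several times above both P1 libraries, and the changes were 4.15 ± 0.037, 3.93 ± 0.038 and 2.62 ± 0.032 (adjusted p = 2.51e-169, 5.13e-164 and 4.77e-145). Samd7 and Samd11, Polycomb partners in rods, rose by 3.78 ± 0.057 and 3.60 ± 0.039. Otx2 (1.28 ± 0.031) and Prdm1 (0.89 ± 0.044), which act in new photoreceptors, rose by less. The members that fell are known from cones: Rxrg changed by -0.77 ± 0.11, Thrb, the thyroid hormone receptor, by -0.18 ± 0.070, and Sall3 by -0.46 ± 0.16. Sall3 lost its call without P1 replicate 1 (-0.25, adjusted p = 0.310). Thrb lost its call without P1 replicate 2 (-0.15, adjusted p = 0.146), P7 replicate 1 (-0.18, adjusted p = 0.0732) or P7 replicate 2 (-0.18, adjusted p = 0.0666), in edgeR's test. DESeq2 called neither (adjusted p = 0.0803 and 0.0822).

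All 18 rod genes rose, 17 of them at least 2-fold, against 28.8% and 9.6% of all genes, with a median of 4.22. Sag, the rod arrestin that ends the light response, was at 10.1 and 9.99 CPM at P1 and 369 and 367 CPM at P7, and Pde6b, a subunit of the rod phosphodiesterase, at 4.70 and 4.05 CPM at P1 and 229 and 229 CPM at P7. The P7 libraries nearly coincided in these genes while P1 and P7 were far apart, with changes of 5.19 ± 0.048 and 5.71 ± 0.063. The channel subunits Cnga1 and Cngb1, which close in light, rose by 6.49 ± 0.15 and 5.67 ± 0.072. The transducin subunit Gnat1 was at 1.65 and 2.00 CPM at P1 and 19.5 and 20.5 CPM at P7, a change of 3.45 ± 0.13. The disc proteins Prph2 and Rom1 rose by 4.60 ± 0.045 and 3.85 ± 0.047. Gnb1, a G protein subunit used in many neurons, was the member nearest to 0, at 0.77 ± 0.026.

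CRX and OTX2 bind the core TAATCC, and NRL a longer site with the half-site TGCTGA. The promoters of Crx, Sag, Cnga1 and Rbp3, which all rose and all hold TAATCC, are shown as examples in the same form. Matches to either motif on both strands are in capitals (reverse matches read GGATTA and TCAGCA). These examples do not stand for their lists, in which many genes lack TAATCC.

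Crx, chr7:15879906-15880205, minus strand: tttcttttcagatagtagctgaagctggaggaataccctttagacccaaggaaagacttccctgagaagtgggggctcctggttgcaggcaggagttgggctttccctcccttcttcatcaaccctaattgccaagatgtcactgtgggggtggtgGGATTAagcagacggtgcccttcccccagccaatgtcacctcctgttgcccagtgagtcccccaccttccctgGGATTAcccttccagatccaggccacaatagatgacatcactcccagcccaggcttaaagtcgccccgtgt
Sag, chr1:87803430-87803729, plus strand: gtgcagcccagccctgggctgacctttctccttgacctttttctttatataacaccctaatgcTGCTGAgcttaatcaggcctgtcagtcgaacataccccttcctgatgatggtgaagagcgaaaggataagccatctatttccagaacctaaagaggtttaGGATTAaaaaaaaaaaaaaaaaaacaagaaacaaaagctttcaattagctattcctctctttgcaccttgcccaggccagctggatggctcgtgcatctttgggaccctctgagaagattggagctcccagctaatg
Cnga1, chr5:72642703-72643002, minus strand: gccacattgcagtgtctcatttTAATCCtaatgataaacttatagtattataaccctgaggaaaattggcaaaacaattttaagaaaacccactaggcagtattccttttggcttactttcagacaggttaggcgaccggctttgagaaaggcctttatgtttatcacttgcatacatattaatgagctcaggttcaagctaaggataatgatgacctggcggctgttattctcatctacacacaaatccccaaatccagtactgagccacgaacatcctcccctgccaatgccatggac
Rbp3, chr14:33953753-33954052, plus strand: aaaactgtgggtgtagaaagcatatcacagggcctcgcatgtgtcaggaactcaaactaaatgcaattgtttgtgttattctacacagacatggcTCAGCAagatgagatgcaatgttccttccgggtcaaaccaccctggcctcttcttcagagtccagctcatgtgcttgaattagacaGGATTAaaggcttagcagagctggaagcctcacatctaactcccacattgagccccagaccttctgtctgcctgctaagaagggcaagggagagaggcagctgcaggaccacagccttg

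TAATCC was held by 5 of 10 rod genes with a promoter in the table (50%), by 6 of 13 photoreceptor transcription factors (46.2%) and by 6 of 13 genes of phototransduction shared by rods and cones (46.2%), against 8.14% of all genes. Its highest share was in the visual cycle and pigment epithelium list, 6 of 11 (54.5%), and 5 of 14 ribbon synapse genes (35.7%) held it. TGCTGA was held by 6 of those 13 shared genes (46.2%), by 4 of 13 factors (30.8%) and by 2 of 10 rod genes (20%), against 21.7% of all genes; the highest share was in the lens list, 13 of 17 (76.5%). By contrast 1 of 9 cone genes (11.1%) and 0 of 22 cell cycle genes held TAATCC. Absence says only that these letters are not in the window.

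Genes of phototransduction that rods and cones share all rose (17 of 17, median 2.93). Rbp3, the retinoid carrier between photoreceptors and pigment epithelium, was at 164 and 161 CPM at P1 and 792 and 780.4 CPM at P7, a change of 2.27 ± 0.029. Rcvrn, the calcium sensor recoverin, changed by 4.22 ± 0.11, Grk1, the kinase that shuts off the rod pigment, by 4.76 ± 0.086, and Pdc, phosducin, by 3.86 ± 0.040. Rgs9, which speeds the shut-off of transducin, rose by 1.28 ± 0.060. The smallest value was that of Guca1b, a guanylate cyclase activator, whose call (0.50 ± 0.21) was lost without P1 replicate 2 (0.15, adjusted p = 0.620) or P7 replicate 1 (0.21, adjusted p = 0.533), and in the fits of all 16 libraries (adjusted p = 0.0854), of the 8 of P1 and P7 (0.0592) and of the 4 CKO libraries (0.0688).

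Cone genes split. Of 13 tested, 6 rose, 5 fell and the median was 0.16. Opn1sw, the short-wavelength cone opsin, was at 33.1 and 33.2 CPM at P1 and 24.1 and 24.2 CPM at P7, and Pde6c, the cone phosphodiesterase, at 17.7 and 17.8 CPM at P1 and 7.72 and 6.68 CPM at P7. Both P7 libraries were below both P1 libraries in each gene, and the changes were -0.46 ± 0.069 and -1.30 ± 0.11 (adjusted p = 1.95e-09 and 7.13e-23). With all 16 libraries in the fit Opn1sw lost its call (adjusted p = 0.568), and the cone list then held 4 rises and 3 falls. The cone channel subunit Cnga3 fell by 1.44 ± 0.17. Cone arrestin Arr3 was at 0.747 and 0.400 CPM at P1 and 7.33 and 7.36 CPM at P7, a change of 3.65 ± 0.25. Gnb3, a G protein subunit of cones and bipolar cells, rose by 1.80 ± 0.038. Opn1mw, the middle-wavelength opsin, had 1 count over the P1 libraries and 1 over the P7 libraries, at or under the limit, whereas the P7 controls had 10 counts each (0.517 and 0.489 CPM).

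Genes of the structures that photoreceptors build mostly rose. Of 18 genes of the cilium and outer segment discs, 13 rose and 1 fell (median 0.91). The largest rises were in genes known from photoreceptors, Rp1l1 by 3.26 ± 0.064, Prcd by 2.82 ± 0.10 and Rpgrip1 by 2.78 ± 0.032. The 1 member that fell was Kif3a, a transport motor of cilia, at -0.46 ± 0.046, and Ift88, of ciliary transport, was at -0.04 ± 0.078, which did not pass the test. Of 17 ribbon synapse genes, 16 rose and 0 fell, with a median of 1.59. Slc17a7, the vesicular glutamate transporter, was at 5.92 and 5.60 CPM at P1 and 113 and 111 CPM at P7, and Cacna1f, the calcium channel of the ribbon, at 5.28 and 6.68 CPM at P1 and 88.3 and 82.1 CPM at P7, changes of 4.28 ± 0.070 and 3.84 ± 0.079. Cabp4, which tunes that channel, was at only 1.28 and 1.08 CPM at P1 and 3.86 and 3.29 CPM at P7. Bsn, a scaffold of many synapses, changed by 0.04 ± 0.049 and did not pass the test. In the matrix and adhesion group (7 of 11 rose, 1 fell), Crb1, of the outer limiting membrane, was at 22.5 and 23.8 CPM at P1 and 53.1 and 51.2 CPM at P7, a change of 1.17 ± 0.064.

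**Figure D2:**
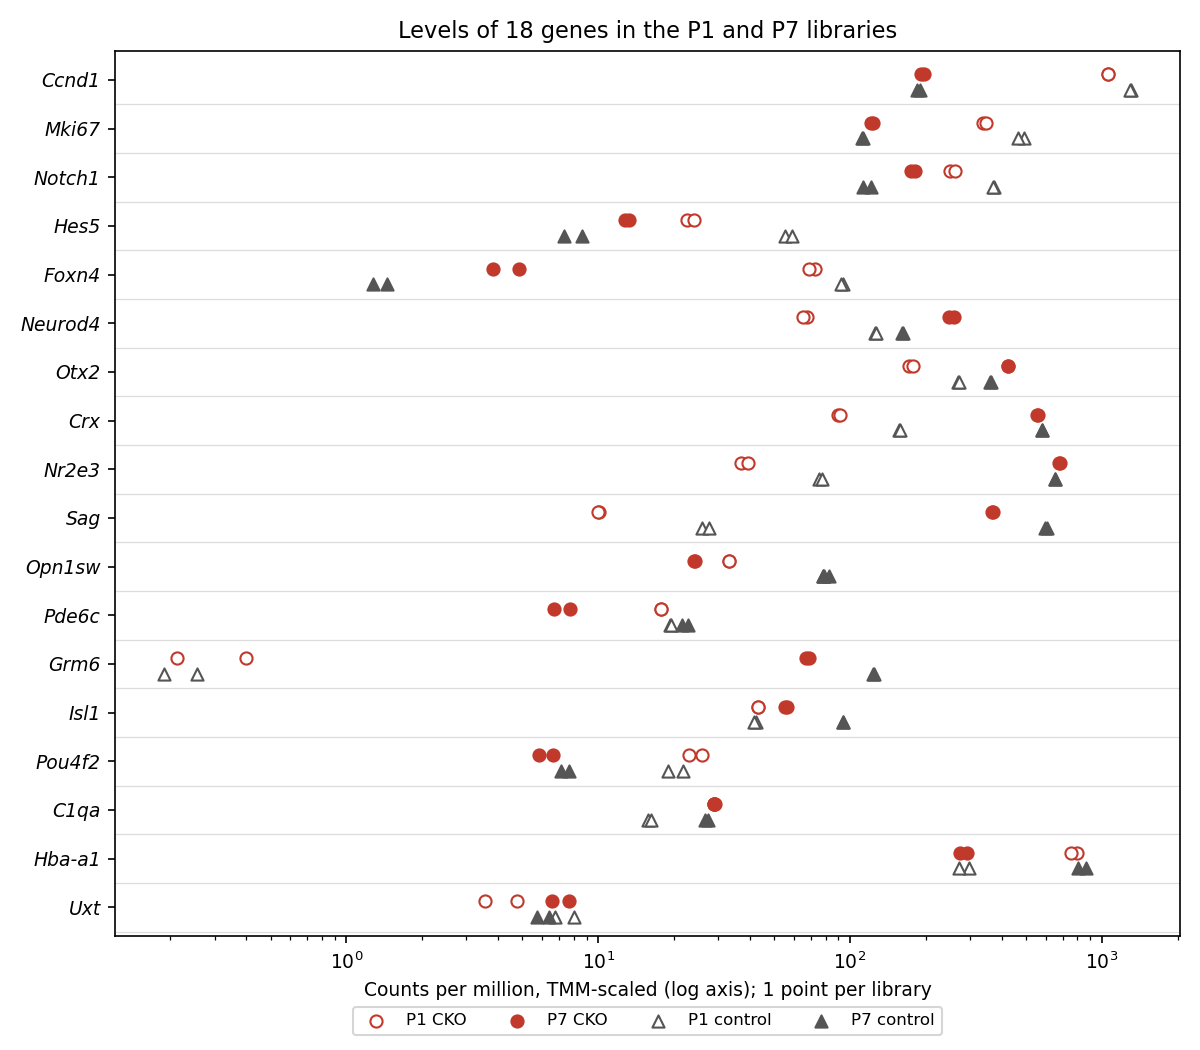
Level of 18 genes in each library (horizontal axis, TMM-scaled CPM on a log axis), with circles for libraries labelled CKO, triangles for controls, open symbols for P1 and filled ones for P7. Replicates nearly coincide for most genes; Pde6c was lower at P7 than at P1 in CKO but not in controls, and Hba-a1 moved in opposite directions in CKO and controls. Opn1sw of P1 controls and C1qa of P1 CKO lie under the P7 points of the same genotype.

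Bipolar cells, the second-order neurons of the retina, had mostly rising genes. Of 20 genes, 15 rose, 10 of them at least 2-fold, 2 fell and the median was 1.01. Grm6, the glutamate receptor of ON bipolar dendrites, was at 0.213 and 0.400 CPM at P1 and 68.6 and 66.9 CPM at P7, a change of 7.77 ± 0.14 (adjusted p = 1.60e-114). Gpr179, which anchors its signalling proteins, rose by 3.03 ± 0.088, and Vsx1, a homeobox factor of cone bipolar cells, by 6.66 ± 0.25. Bhlhe23, a factor of rod bipolar cells, had 0 counts at P1 and 275 at P7, at least 84.4-fold higher against a limit of 3 counts over the P1 group. Several other bipolar genes, Isl1, Cabp5 and Trpm1, moved little. Isl1 was at 43.0 and 43.1 CPM at P1 and 56.0 and 55.2 CPM at P7. Cabp5 was at 7.15 and 6.17 CPM at P1 and 6.98 and 6.99 CPM at P7. Trpm1, the channel controlled by the Grm6 cascade, was at 193 and 198 CPM at P1 and 217 and 212 CPM at P7. Their changes were 0.37 ± 0.055, 0.07 ± 0.14 (which did not pass the test) and 0.13 ± 0.032, of which Trpm1 lost its call with all 16 libraries (adjusted p = 0.0572). Lrit3, a partner of the same cascade, fell by 0.51 ± 0.11. The other member called lower, Rgs7, was at -0.34 ± 0.13 and lost its call with all 16 libraries (adjusted p = 0.0643), without P1 replicate 1 (0.0981), P1 replicate 2 (0.0519) or P7 replicate 1 (0.124), and in DESeq2 (0.0979).

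Genes of early-born neurons gave mixed values. Of 18 ganglion cell genes, 14 fell, 8 of them at least 2-fold, and 3 rose (median -0.65). Pou4f2, the factor that fixes the ganglion cell fate, was at 22.9 and 25.9 CPM at P1 and 6.64 and 5.85 CPM at P7, and its paralogs Pou4f1 and Pou4f3 changed by -1.82 ± 0.070 and -1.96 ± 0.20. Sncg, gamma-synuclein of ganglion cell axons, changed by -1.61 ± 0.063, whereas Nefh, the heavy neurofilament of mature axons, rose by 2.05 ± 0.15. Of 11 horizontal cell genes, 6 rose and 5 fell. Onecut1, which specifies these cells, changed by -1.73 ± 0.24, while Gjd2, a gap junction protein also of other neurons, rose by 1.85 ± 0.10. Of 18 amacrine cell genes, 7 rose, 4 fell and 7 did not pass the test, against 28.8% of all genes higher and 27.2% lower. The inhibitory transmitter genes Slc6a9 (1.51 ± 0.057), Slc32a1 (1.29 ± 0.086) and Gad1 (1.00 ± 0.067), for glycine uptake, vesicle loading and GABA synthesis, rose, but Gad2, the other GABA enzyme, changed by -0.90 ± 0.084.

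Synaptic genes mostly rose and growth genes mostly fell. Of 19 genes of excitability and synapses, 13 rose and 1 fell (median 0.75). Syp, synaptophysin of synaptic vesicles, was at 78.8 and 78.5 CPM at P1 and 256 and 267 CPM at P7, a change of 1.73 ± 0.036. Slc12a5, the chloride exporter KCC2 that makes GABA inhibitory, was at 43.2 and 40.0 CPM at P1 and 126 and 126 CPM at P7, a change of 1.60 ± 0.046. Of 16 genes of the immature cytoskeleton and axon growth, 13 fell and 2 rose (median -0.55). Dcx, doublecortin of migrating neurons, was at 113 and 113 CPM at P1 and 30.9 and 28.0 CPM at P7, and Gap43, of growth cones, at 141 and 143 CPM at P1 and 56.9 and 55.4 CPM at P7, changes of -1.94 ± 0.054 and -1.34 ± 0.045.

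Of 18 genes of Müller glia, the radial glia of the retina, 14 rose and 4 fell (median 0.58). Rlbp1, which carries retinoid in these cells, was at 53.6 and 54.1 CPM at P1 and 152 and 152 CPM at P7 and Aqp4, their water channel, at 1.71 and 2.23 CPM at P1 and 10.6 and 11.5 CPM at P7, rises of 1.50 ± 0.043 and 2.49 ± 0.17. Glul, glutamine synthetase, went the other way, at 678 and 687 CPM at P1 and 365 and 359.7 CPM at P7, a change of -0.91 ± 0.026, together with Vim (-0.79 ± 0.025) and Dkk3 (-0.75 ± 0.026). Of 14 genes of astrocytes and gliosis, 5 rose and 4 fell, not far from the 28.8% of all genes higher and 27.2% lower. Gfap rose by 1.07 ± 0.039, and Cd44 and Lcn2 fell by 1.10 ± 0.051 and 1.00 ± 0.18. Of 10 myelin genes, 9 rose (median 1.75), among them Mbp, at 40.8 and 40.1 CPM at P1 and 294 and 276 CPM at P7, a change of 2.82 ± 0.041. Mouse retina itself holds no myelin, and the source of these transcripts was not tested.

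Of 17 genes of microglia and macrophages, the immune cells of the retina, 9 fell, 2 rose and 6 did not pass the test (median -0.32). C1qa, of complement, was at 28.8 and 29.1 CPM at P1 and 28.8 and 28.9 CPM at P7, with no difference beyond the spread (0.00 ± 0.072), and Trem2, a receptor of phagocytic microglia, at 4.75 and 5.54 CPM at P1 and 3.12 and 3.55 CPM at P7, a change of -0.62 ± 0.19 that lost its call without P1 replicate 2 (-0.51, adjusted p = 0.0623). Csf1r, the receptor on which microglia depend, rose by 0.25 ± 0.059, and Lyz2, lysozyme, by 0.75 ± 0.069. Vessel and pericyte genes had a median near 0 (-0.09), but 7 of 15 fell, against 27.2% of all genes, and 2 rose. With all 16 libraries 4 fell and 1 rose. The pericyte gene Rgs5 was highest, at 1.02 ± 0.042, and Cspg4 lowest, at -0.77 ± 0.062. Of 15 genes of the visual cycle and pigment epithelium, 10 rose and 3 fell. Rgr, a retinal isomerase, was at 7.95 and 7.08 CPM at P1 and 79.5 and 77.8 CPM at P7, a change of 3.38 ± 0.073, and Rpe65, the isomerase of the pigment epithelium, had 2 counts at P1 and 229 at P7, a ratio of 105 (exact 95% counting interval 28.9 to 876). Pigment genes moved less, with Dct at 0.44 ± 0.027 and Tyrp1 at 0.61 ± 0.037.

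**Figure D3:**
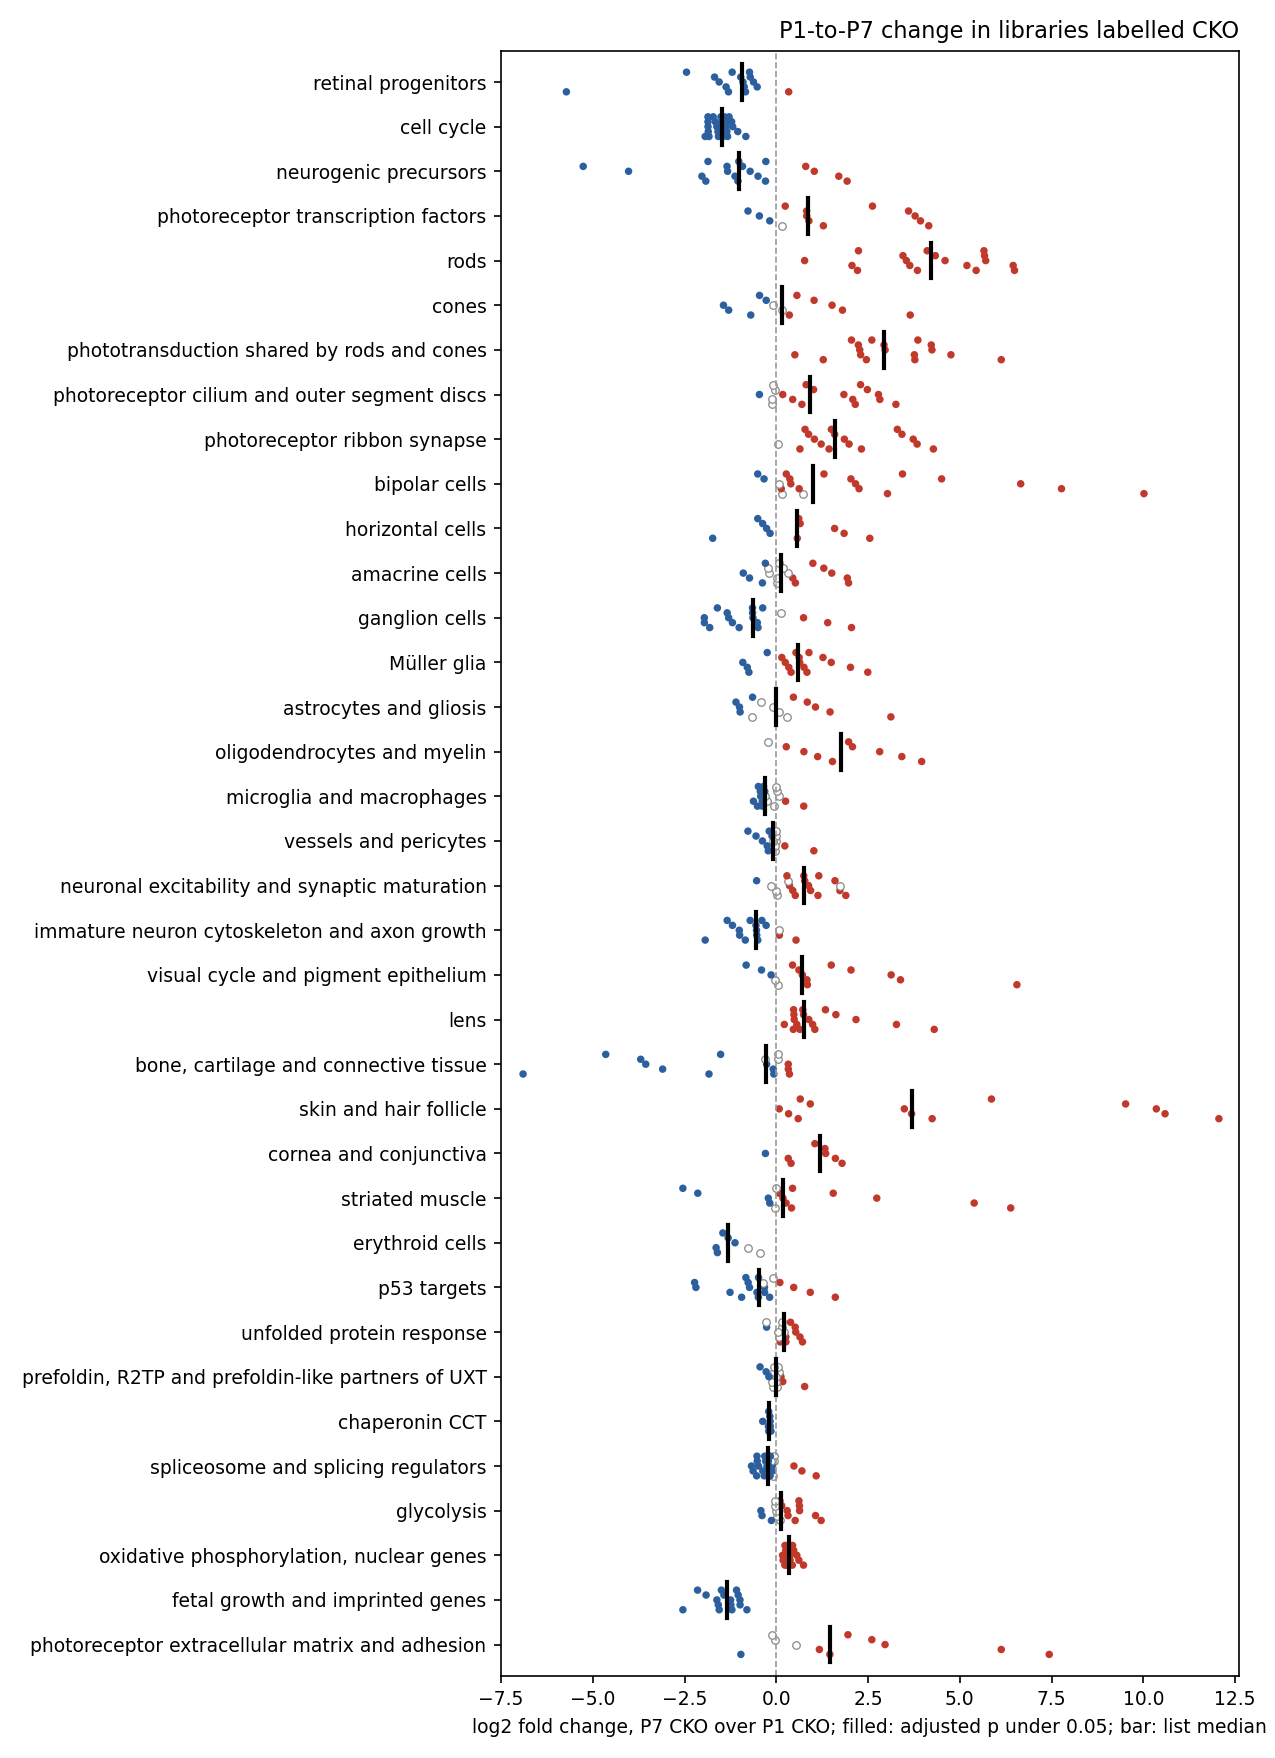
Log2 fold change of P7 CKO over P1 CKO (horizontal axis) for each tested member of 36 gene lists, 1 row per list; filled points passed the test (red higher, blue lower at P7), open points did not, and the black bar is the list median. Cell cycle, precursor and fetal growth lists lie to the left, and rod, shared phototransduction and synapse lists to the right; Bhlhe23 and Flg, the rightmost points of their lists, had no count at P1 and are placed at a fitted value.

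Genes of fetal growth fell: all 16 genes of fetal growth and imprinting fell, 13 of them at least 2-fold (median -1.34). Igf2bp1, which binds fetal growth messages, was at 57.6 and 56.7 CPM at P1 and 9.11 and 10.5 CPM at P7, and Plagl1, an imprinted zinc finger factor, at 554 and 555 CPM at P1 and 126 and 124 CPM at P7, changes of -2.55 ± 0.081 and -2.15 ± 0.031. The p53 target list had 13 of 19 lower and 4 higher (median -0.48). Cdkn1a, the p21 inhibitor of cell division, was at 105 and 110.5 CPM at P1 and 56.7 and 55.2 CPM at P7 and Pmaip1, the pro-death protein NOXA, at 9.55 and 8.34 CPM at P1 and 2.48 and 1.41 CPM at P7, changes of -0.95 ± 0.048 and -2.19 ± 0.20. Eda2r, a death receptor target of p53, changed by -1.26 ± 0.13, while Ptp4a3, a phosphatase, rose by 1.61 ± 0.036.

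The partners of UXT changed little. Of 15 prefoldin, prefoldin-like and R2TP genes, which include Uxt, 3 rose and 3 fell, none by 2-fold (1 and 2 with all 16 libraries). Uri1, the partner of UXT, was at 65.3 and 62.7 CPM at P1 and 60.3 and 62.5 CPM at P7, a change of -0.06 ± 0.051 that did not pass the test, and Ruvbl1 and Ruvbl2 changed by -0.28 ± 0.056 and -0.44 ± 0.053. All 8 subunits of the CCT chaperonin, which folds actin and tubulin, fell slightly (median -0.19), with Tcp1 lowest, at -0.37 ± 0.033. Of 15 genes of the unfolded protein response, 8 rose and 1 fell, none by 2-fold. Hspa5, the main chaperone of the endoplasmic reticulum, was at 249.7 and 256 CPM at P1 and 330.2 and 331 CPM at P7, and Xbp1, a transcription factor of that response, at 64.5 and 64.0 CPM at P1 and 79.1 and 74.9 CPM at P7, rises of 0.39 ± 0.029 and 0.26 ± 0.047.

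Of 28 splicing genes, 21 fell and 3 rose. Ptbp1, a splicing repressor of progenitors, was at 253 and 257 CPM at P1 and 153 and 166 CPM at P7, a change of -0.68 ± 0.033, and Srrm4, which promotes neuronal microexons, at 89.1 and 85.7 CPM at P1 and 186 and 186 CPM at P7, a change of 1.09 ± 0.039. Musashi, encoded by Msi1 and active in photoreceptor splicing, rose by 0.48 ± 0.027. All 18 nuclear genes of oxidative phosphorylation rose, none by 2-fold (median 0.33), but only 8 of them passed in the fit of all 16 libraries. The 17 glycolysis genes have 18 gene IDs, since Aldoa has 2, and of these IDs 10 rose and 3 fell. Ldha, the lactate dehydrogenase subunit on which photoreceptor aerobic glycolysis rests, was at 312 and 311 CPM at P1 and 727 and 724 CPM at P7, a change of 1.22 ± 0.027, while Pkm was at 1071 and 1060.1 CPM at P1 and 1075 and 1055 CPM at P7, with no difference beyond the spread.

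Genes of tissue around the retina moved with age and are given here as measured. Lens genes, as a sum, took 4.43% and 4.31% of counts at P1 and 7.24% and 7.30% at P7, and all 17 rose (median 0.74; 13 in the fit of all 16 libraries), with Crybb2 at 108 and 112 CPM at P1 and 2173 and 2156 CPM at P7. Skin and hair follicle genes took 0.219% and 0.217% at P1 and 0.444% and 0.439% at P7, and 13 of 13 rose. Their hair keratin Krt71 was at 0.320 and 0.0571 CPM at P1 and 312 and 305 CPM at P7. Striated muscle genes took 0.651% and 0.652% at P1 and 0.602% in each P7 library, with Myh1, an adult myosin, up by 5.39 ± 0.057 and the embryonic genes Myh3 and Actc1 changed by -2.14 ± 0.029 and -2.55 ± 0.033. Bone and connective tissue genes took 2.35% in each P1 library and 2.30% in each P7 library. The bone genes Ibsp (19.9 and 15.8 CPM at P1 and 1.34 and 1.41 CPM at P7) and Mmp13 (27.1 and 29.3 CPM at P1 and 0.149 and 0.313 CPM at P7) nearly vanished. Controls had no such fall of Mmp13, which was at 0.0941 and 0.205 CPM at P1 and 0.310 and 0.245 CPM at P7. Secretory gland genes took 0.000347% and 0.000376% at P1 and 0.0723% and 0.0737% at P7, 10 of 11 rose, and the sum was mostly Bpifa6, at 2.94 and 3.14 CPM at P1 and 674 and 687 CPM at P7. Erythroid genes took 0.207% and 0.182% at P1 and 0.0699% and 0.0727% at P7, with Hba-a1 at 801 and 752 CPM at P1 and 273 and 293 CPM at P7; Hba-a1 and Hba-a2 are near-identical, so reads may be split between them. Of 8 cornea and conjunctiva genes 7 rose and 1 fell. With TMM factors computed without the genes of these lists, the median of the rod genes was 4.22 and that of the cell cycle genes -1.48, as with all genes. The part of these tissues in the changes of single retinal genes was not tested.

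By a rule on size and level, the 12 largest rises among all genes were Flg, Prr9, Krt71, Krt27, Krt25, Acox2, Pip, BC048679, Mucl2, Bpifa6, Grm6 and Scgb2b2, of which Grm6 is a member of the retinal lists. Flg, filaggrin of skin, had 0 counts at P1 and 1133 at P7, at least 348-fold higher. Counts over the P1 group were 1 for Prr9 (2094 at P7, a ratio of 1930, counting interval 346 to 76200), 3 for Krt27 (4617 at P7, a ratio of 1420 with an interval from 485 to 6880) and 2 for Acox2 (1199 at P7, a ratio of 552 with an interval from 153 to 4570). Krt25 rose by 9.52 ± 0.13, Pip, a secreted gland protein, by 8.40 ± 0.20, BC048679 by 7.95 ± 0.071, Mucl2, a mucin-like gland gene, by 7.84 ± 0.15, and Scgb2b2, a secretoglobin that overlaps Scgb1b2 on the other strand, by 7.48 ± 0.13. The 12 largest falls were Mmp13, Fgf15, Atoh7, Hdc, Dio3, Foxn4, Hif3a, Spp1, Zbtb16, Mmp9, Hs3st4 and Actc1. Hdc, histidine decarboxylase, was at 37.8 and 36.3 CPM at P1 and 1.58 and 1.46 CPM at P7, and Dio3, which inactivates thyroid hormone, at 26.0 and 23.2 CPM at P1 and 0.842 and 1.41 CPM at P7, changes of -4.60 ± 0.14 and -4.45 ± 0.17. Hif3a, a hypoxia-inducible factor subunit, changed by -3.79 ± 0.072, the zinc finger gene Zbtb16 by -3.12 ± 0.099, and Hs3st4, a heparan sulfate sulfotransferase, by -2.70 ± 0.12. The bone genes Spp1 and Mmp9 changed by -3.56 ± 0.075 and -3.10 ± 0.15. In controls Spp1 fell by less (-1.78 ± 0.11), and Mmp9 rose (0.72 ± 0.26). At P1 Spp1 was at 97.2 and 103 CPM in CKO and 17.4 and 18.4 CPM in controls. Mmp9 was at 22.7 and 22.2 CPM in CKO and 1.03 and 1.79 CPM in controls at that age. The falls of Mmp13 and Mmp9 thus start from high levels in the P1 CKO libraries and were not seen in controls.

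Whether the CKO change differed from control maturation was tested by the interaction term, the P1-to-P7 change in CKO minus that in controls, in the same fit. It passed for 4546 genes (22.3%), above 0 for 2333 (11.5%) and below 0 for 2213 (10.9%), with a median of 0.01 over all genes. By sign of the fitted values, 1139 of these were lower at P7 in both, with the smaller decline in CKO, and 1043 were higher in both, with the smaller rise in CKO. Another 579 were higher in both with the larger rise in CKO, and 477 lower in both with the larger decline in CKO. The value was higher in CKO and lower in controls for 615 and the reverse for 693. The count depended on the libraries that share the spread and on the tool: with all 16 libraries in the fit it was 1514 (3.57% of tested genes above and 3.6% below 0), and with DESeq2 it was 2659. The balance of directions turned with the scaling: with library size alone 1987 were above and 2491 below 0, and with RLE factors 2155 and 2352.

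For most precursor genes the change in CKO was above that in controls. The interaction passed above 0 for 18 of 19 precursor genes (0 below) and for 10 of 16 progenitor genes (1 below), against 11.5% of all genes. Medians were 0.93 and 0.42, and with all 16 libraries it passed above 0 for 13 and 4. As a sum, precursor genes were at 1362 and 1350 CPM at P1 in CKO and 1963 and 1962 CPM in controls. At P7 they were at 1398 and 1389 CPM in CKO and 1151 and 1125 CPM in controls. The progenitor sum was at 3068 and 3047 CPM at P1 in CKO and 3652 and 3663 CPM in controls. At P7 it was at 1417 and 1421 CPM in CKO and 1383 and 1369 CPM in controls. Hes5 was at 55.2 and 59.1 CPM at P1 and 7.29 and 8.61 CPM at P7 in controls and 22.6 and 24.0 CPM at P1 and 12.8 and 13.2 CPM at P7 in CKO, and the difference of the changes was 2.00 ± 0.13 (adjusted p = 2.61e-31). The CKO libraries were thus below controls at P1 and above them at P7. Notch1 (1.15 ± 0.047), Foxn4 (2.07 ± 0.22) and Neurod4 (1.58 ± 0.053) lay on the same side. Of 26 cell cycle genes, 16 had an interaction above 0 and 0 below (median 0.33). E2f1, a factor of entry into S phase, was at 1.02 ± 0.090, Mki67 at 0.61 ± 0.047 and Top2a at 0.59 ± 0.049. As a sum, cell cycle genes were at 2610 and 2644 CPM at P1 in CKO and 3195 and 3203 CPM in controls. At P7 they were at 917 and 913 CPM in CKO and 851 and 845 CPM in controls. Values above 0 thus reflect lower levels in CKO at P1 as well as higher levels at P7. With all 16 libraries 3 of the cell cycle genes passed, and Mki67 and Top2a did not (adjusted p = 0.373 and 0.396).

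Most photoreceptor factors had changes above those in controls, and rod genes lay on both sides. As a sum, the factors were at 929 and 942 CPM at P1 in CKO and 1363 and 1358 CPM in controls. At P7 they were at 3646 and 3628 CPM in CKO and 3500 and 3479 CPM in controls. The rod sum was lower in CKO at both ages, at 529 and 538 against 612 and 622 CPM at P1. At P7 it was at 3308 and 3322 CPM in CKO and 4520 and 4525 CPM in controls. The interaction was above 0 for 8 of 14 factors and below for 2 (7 and 2 with all 16 libraries). Crx was at 157 and 158 CPM at P1 and 578 and 582 CPM at P7 in controls, and the difference of changes was 0.74 ± 0.044; Nrl (0.95 ± 0.055), Nr2e3 (1.06 ± 0.054) and Otx2 (0.85 ± 0.043) were alike. Prdm1 and Rorb, higher at P7 in CKO, were lower at P7 in controls (-0.21 ± 0.041 and -0.55 ± 0.032), differences of 1.09 ± 0.061 and 0.79 ± 0.046. Among rod genes 6 were above and 4 below 0 (5 and 2 with all 16 libraries), with Sag at 0.70 ± 0.082. Of 13 cone genes 4 were below and 3 above 0 (2 and 2 with all 16 libraries). Pde6c was at 19.2 and 19.4 CPM at P1 and 21.5 and 22.6 CPM at P7 in controls and the difference was -1.49 ± 0.14 (adjusted p = 1.57e-18), and for Opn1sw it was -0.50 ± 0.084, which did not pass with all 16 libraries (adjusted p = 0.803). Of 17 ribbon synapse genes, 8 were above and 2 below 0, with a median of 0.23 (2 above and 1 below with all 16 libraries). Cabp4, among those below 0, was at 0.470 and 0.871 CPM at P1 and 9.26 and 9.54 CPM at P7 in controls, a difference of -2.22 ± 0.39.

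Of 20 bipolar genes, 8 had an interaction below 0 and 1 above, against 10.9% and 11.5% of all genes (5 and 1 with all 16 libraries). Isl1 was at 42.2 and 41.6 CPM at P1 and 94.1 and 94.2 CPM at P7 in controls, a difference of -0.80 ± 0.075 (adjusted p = 6.28e-19), and Cabp5 and Rgs7 differed by -0.94 ± 0.19 and -0.72 ± 0.18. Of 18 ganglion cell genes, 9 were below and 3 above 0 (1 and 1 with all 16 libraries), and of 18 amacrine genes 0 were below and 8 above (0 and 3). Crb1, at 68.4 and 67.7 CPM at P1 and 63.7 and 63.9 CPM at P7 in controls, differed by 1.27 ± 0.082.

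Some immune and stress genes had changes below those in controls, against 10.9% of all genes with an interaction below 0. This does not mean lower levels at P7. As a sum, microglial genes were at 335 and 327 CPM at P1 in CKO and 190 and 190 CPM in controls. At P7 they were at 296 and 302 CPM in CKO and 274 and 268 CPM in controls. The p53 target sum was also above controls at both ages. The sum for the unfolded protein response was above controls at P1 and below them at P7. The interaction passed below 0 for 13 of 17 microglial genes (10 with all 16 libraries), with C1qa at 15.7 and 16.2 CPM at P1 and 26.6 and 27.3 CPM at P7 in controls and a difference of -0.76 ± 0.11, and Trem2 at -1.60 ± 0.29. It was below 0 for 12 of 19 p53 targets: Pmaip1, at 1.69 and 1.43 CPM at P1 and 1.71 and 1.42 CPM at P7 in controls, differed by -2.18 ± 0.36, Eda2r by -1.28 ± 0.20 and Cdkn1a by -0.70 ± 0.073. With all 16 libraries 6 of these passed, and Cdkn1a did not (adjusted p = 0.0701). The same held for 10 of 15 genes of the unfolded protein response (5 with all 16 libraries), with Hspa5 at -0.70 ± 0.041 and Xbp1 at -0.95 ± 0.065. Of 7 erythroid genes 6 were below 0 (5 with all 16 libraries). Hba-a1 was at 297 and 270.1 CPM at P1 and 803 and 864 CPM at P7 in controls, a difference of -3.01 ± 0.087, and Alas2, of haem synthesis, differed by -3.33 ± 0.11. Lens genes (14 of 17 above 0) and muscle genes (12 of 15 below) moved with the contrast too (1 and 2 with all 16 libraries), and the part of these tissues in it was not tested.

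**Figure D4:**
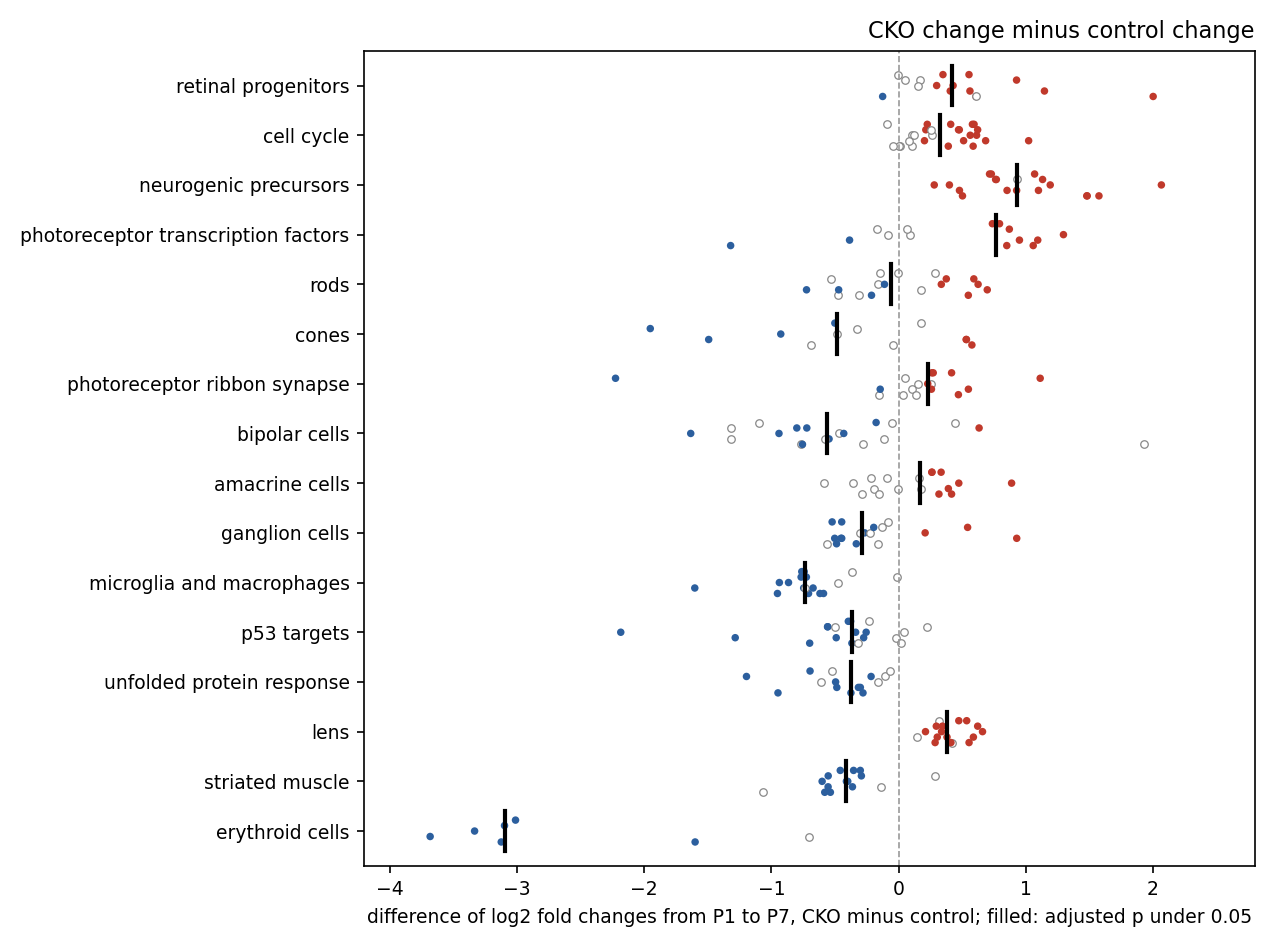
Difference between the P1-to-P7 log2 fold changes in CKO and in controls (horizontal axis) for each tested member of 16 gene lists; filled points passed the interaction test (red above, blue below 0), open points did not, and the black bar is the list median. Precursor genes lie right of 0 and microglial, p53 target and erythroid genes left of it; Opn1mw, which rests on few counts, is outside the axis.

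Of all tested genes, 630 (3.1%) passed the interaction test with a difference of at least 2-fold, 289 (1.42%) above and 341 (1.68%) below 0. By the rule on size and level, the largest interactions above 0 were Krt71 (7.12 ± 0.21), Krt27 (6.78 ± 0.34), Prr9 (6.74 ± 0.55), Krt25 (6.16 ± 0.25), Krt28 (2.63 ± 0.36), Tchh (2.60 ± 0.093), Robo3 (2.45 ± 0.099) and Cst6 (2.42 ± 0.31). All but Robo3, an axon guidance receptor, are known from skin or hair. Robo3 was at 15.8 and 14.8 CPM at P1 and 92.1 and 85.9 CPM at P7 in CKO and 33.1 and 30.7 CPM at P1 and 35.7 and 32.5 CPM at P7 in controls. The largest below 0 were the bone gene Mmp13 (-7.78 ± 0.96), and gland or skin genes: Scgb2b2, Obp1a (-5.76 ± 0.70), Scgb2a2 (-5.61 ± 0.95), Mucl2 (-5.20 ± 0.81), Scgb1b2 (-5.11 ± 1.49), Scgb2b20 (-4.44 ± 1.41) and A2ml1 (-4.15 ± 0.70). Scgb2b2 had no count in P1 controls, so its fitted value has no true size, and Krt27, Prr9, Scgb1b2 and Scgb2b20 had at most 3 counts over the P1 CKO group. Leaving out a single P1 library ended the calls of Scgb1b2 (CKO replicate 2, adjusted p = 0.172) and Scgb2b20 (CKO replicate 1, adjusted p = 0.231, or control replicate 1, adjusted p = 0.0686). Secretoglobin genes are close copies, so their reads may be split between them.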

How the data were processed

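RNA was sequenced from retina of mice labelled CKO or control. Per the labels' protocols libraries were made from polyA+ RNA and read in pairs on a HiSeq instrument, and per the submitters' processing notes HISAT2 and HTSeq were used with the build mm10. Versions, annotation, strand setting and filters are not given in the sources used here. The authors deposited raw counts for each library over 54532 Ensembl gene rows, and GENCODE M21 gave a symbol for 54409. Without a stated strand setting, reads of overlapping genes on opposite strands cannot be told apart.

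From the counts, genes were filtered by filterByExpr (20350 left), scaled by TMM and fitted with edgeR 4.0.16 in R 4.3.3 (glmQLFit, robust; glmQLFTest, two-sided, Benjamini-Hochberg over all tested genes at 0.05) on the 12 libraries of P1, P7 and P14 (6 residual degrees of freedom, no covariate). The P30 libraries were left out, since earlier results of these data gave a far larger difference between the P30 CKO replicates (here a chi-square of 34.8 when divided by its degrees of freedom). The SE is the size of the log2 change divided by the square root of F. It is not a counting interval where a group has few counts. A total count of 16202580 to 19161594 per CKO library sets the precision. The script was tested on simulated data.

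Gene lists and the libraries compared were chosen with earlier results of these data known, so list counts are descriptions. Of the tested list genes, 442 of 573 had a promoter in the RefSeq table. Besides list members, named genes are Uxt, the sex markers, the 12 largest rises and falls, and the 8 largest interactions in each direction. Predicted genes and clones were left out. Rises and falls were called genes changed at least 2-fold in CKO, with at least 20 CPM in the higher CKO group and no overlap between groups. Interactions were genes that passed the interaction test with a difference of at least 2-fold. For these, the highest P1 or P7 group mean, controls included, was at least 20 CPM. Alternatives were RLE and library-size scaling, TMM without genes of other tissues, no filter, and a filter of 5 CPM in 2 libraries. Others were all 16, 8 or 4 libraries, a replicate block, single P1 or P7 libraries left out, and DESeq2 1.42.0. No set test was run. Values of some list members are not reported here.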

Additional observations from a re-analysis of the deposited data

Results flagged for a closer look

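A difference between the P1-to-P7 change in CKO and that in controls passed edgeR's interaction test for 4546 genes, with an unadjusted p under 0.05 for 6542. Values below are CKO change minus control change on the log2 scale, with adjusted p under the threshold in the 12-library fit, and no explanation was tested. Of the targeted gene and of precursor and progenitor genes, the values were above 0: Uxt (1.04), Hes5 (2.00), Notch1 (1.15), Foxn4 (2.07) and Neurod4 (1.58). The same held for the cycling genes E2f1 (1.02), Mki67 (0.61) and Top2a (0.59), and for the photoreceptor genes Crx (0.74), Nrl (0.95), Nr2e3 (1.06), Otx2 (0.85), Prdm1 (1.09), Rorb (0.79), Sag (0.70) and Crb1 (1.27). Photoreceptor and bipolar genes below 0 were Pde6c (-1.49), Opn1sw (-0.50), Cabp4 (-2.22), Isl1 (-0.80), Cabp5 (-0.94) and Rgs7 (-0.72). Immune, stress and erythroid genes below 0 were C1qa (-0.76), Trem2 (-1.60), Pmaip1 (-2.18), Eda2r (-1.28), Cdkn1a (-0.70), Hspa5 (-0.70), Xbp1 (-0.95), Hba-a1 (-3.01) and Alas2 (-3.33).

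Genes of other tissues, and Robo3, had the largest values. Above 0 were Krt71 (7.12), Krt27 (6.78), Prr9 (6.74), Krt25 (6.16), Krt28 (2.63), Tchh (2.60), Robo3 (2.45) and Cst6 (2.42), and below 0 Mmp13 (-7.78), Scgb2b2 (-9.35), Obp1a (-5.76), Scgb2a2 (-5.61), Mucl2 (-5.20), Scgb1b2 (-5.11), Scgb2b20 (-4.44) and A2ml1 (-4.15). Several of these rest on 3 or fewer counts in a P1 group, so the fitted values depend on the prior count and are no bounds.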

How the results depend on the processing

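With 2 libraries a group, outlying libraries could not be tested, and replicates may be technical. Depth limits genes below 0.149 to 0.171 CPM, and in low genes 1 library can decide a call. For single genes named, 26 values under an alternative lost a call that the 12-library fit makes, 2 gained one, 3022 did neither, and no called value changed direction, though values that did not pass, such as those of Bsn, Cabp5 and Pkm, changed sign in some. The number of genes higher by at least 2-fold fell to 1163, and of those lower to 611, when only genes with 5 CPM in 2 libraries were tested, which leaves fewer genes. With library size alone 5403 genes were higher and 6160 lower in CKO, and 1987 interactions were above and 2491 below 0; with RLE factors these were 2155 and 2352, and with the 8 libraries of P1 and P7 2097 and 2439. The interaction count fell from 4546 to 1514 (753 above and 761 below 0) with all 16 libraries and to 2659 (1236 and 1423) with DESeq2. Each P1 and P7 library labelled CKO was left out in turn for the change in CKO, and each P1 and P7 library of either label for the interaction. No P14 library was left out. The lone library left in a group is then assumed to vary like the others. The rise of Uxt was 0.58 to 1.01 in these fits. Under the other scalings no median of a list changed sign in CKO, and the median of all genes moved to -0.03 at most.

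No pairing by replicate number was seen: deviations of same-numbered libraries correlated between -0.0417 and 0.0318 over 13308 genes. Because replicates scatter so little, these correlations cannot show that same-numbered libraries share no batch. With a replicate block 11339 genes changed in CKO and 4455 interactions passed (2296 above, 2159 below 0), and Uxt rose by 0.77 (adjusted p = 3.79e-05).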
